A study of Mus musculus with 8 samples.

Results

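Cytosolic ribosomal protein genes encode the protein part of the ribosome that translates nuclear mRNAs. They were taken from the merged gene table as every row whose mouse symbol starts with Rpl or Rps followed by a number, together with Rpsa, Rplp0, Rplp1 and Rplp2. Symbols with -ps, which mark pseudogenes, and the genes named Rps6k or Rps19bp1, which are not ribosomal proteins, were left out. The rule gave 92 of 55487 rows, 55 for the large and 37 for the small subunit, and 85 of them are annotated as protein coding and 7 as processed pseudogenes. Of the 92, 87 had enough counts to be tested (52 large, 35 small). The 5 others were Rpl10l and Rps12l1, at 0 in every library, and Rpl32l, Rpl39l and Rps3a3, with means of 0.23, 0.061 and 0.283 CPM (counts scaled to the library's effective total). For summed values, the 77 core genes were used (46 large, 31 small), which averaged at least 100 CPM and are not the lesser copy of a paralogue pair.

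The RNA was that of whole sciatic nerve at postnatal day 6, when Schwann cells, the glia of peripheral nerves, are building myelin. In the 4 control libraries (Ctrl) the genotype was CNP+/+ Cdk7lox/lox, and in the 4 knockout libraries (CNP-Cdk7cKO) it was CNPcre/+ Cdk7lox/lox, so both groups carried floxed Cdk7 and the knockout also had Cre in place at 1 Cnp allele. Cnp is active in myelinating glia, so the other cells of the nerve are not targeted by design, and a whole nerve cannot tell fewer cells of a type from less RNA per cell. Nothing in the labels says that each library is a separate animal, so the spread behind the p-values is that of 8 libraries and may in part be technical.

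Library totals ran from 16897242 to 21527891 estimated counts. Cdk7 averaged 21.5 ± 0.70 CPM (Ctrl) against 11.6 ± 1.35 CPM (knockout; SD, n = 4 each), with no overlap. Schwann cell markers were abundant in all libraries, at 13.0 to 14.5% of counts in Ctrl and 10.4 to 11.3% in CNP-Cdk7cKO, with 6 of 10 called lower. Skeletal muscle markers took 0.0587 to 0.586% of counts in Ctrl and 0.0110 to 0.0700% in CNP-Cdk7cKO. Fibroblast and perineurial markers took 3.86 to 4.34% in Ctrl and at least 4.61% in every CNP-Cdk7cKO library (2 of 9 called higher, the groups not overlapping), and macrophage markers, in the same order, 0.0437 to 0.0571% and 0.0560 to 0.0694% (5 of 11 called higher). The part of other cell types in the results below was not tested, except where a fit with the muscle markers is given. By Xist and 4 Y-linked genes, 3 libraries were male (Ctrl 2 to 4) and the other 5 female. Sex and genotype are therefore nearly the same split. Among the 15056 genes tested, the quasi-likelihood F test (edgeR), Benjamini-Hochberg adjusted, called 11.7% at an adjusted p under 0.05. All adjusted p-values below are from that test unless another is named.

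The large subunit holds the centre where peptide bonds form, and the small subunit reads the mRNA codons. Each protein is needed in about the same number of copies per ribosome, and proteins that find no partner are degraded. Most of their mRNAs begin with a C followed by a run of C and T letters at the cap, the terminal oligopyrimidine (TOP) motif, through which mTOR signalling and the protein LARP1 control their translation. In Schwann cells mTOR signalling is known to be high before myelination starts.

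The start regions of 5 genes are shown because 3 of them (Rps27l, Rps2 and Rpl12) were called higher and the other two (Rps27, the main copy of Rps27l, and Rps6, the classic target of the S6 kinases) were not. Each runs 5′ to 3′ on the transcribed strand over 40 bases, the last 15 of which begin at the annotated first base (RefSeq, GRCm38.p6). The capitals mark every run of a C followed by at least 4 letters that are C or T whose first C lies within 10 bases of that first base. In Rps27l the first marked run goes on upstream of that window, and only its part inside the window is in capitals. They lie at chr9:66946061-66946100 (plus strand; Rps27l, the first of its annotated starts), chr3:90213634-90213673 (minus; Rps27), chr17:24720038-24720077 (plus; Rps2), chr2:32961687-32961726 (plus; Rpl12) and chr4:86857353-86857392 (minus; Rps6).
Rps27l: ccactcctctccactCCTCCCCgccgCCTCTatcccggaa
Rps27: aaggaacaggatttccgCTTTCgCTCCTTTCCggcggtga
Rps2: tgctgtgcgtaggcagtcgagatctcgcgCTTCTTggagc
Rpl12: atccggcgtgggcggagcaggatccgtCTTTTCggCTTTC
Rps6: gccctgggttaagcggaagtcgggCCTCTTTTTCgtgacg

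Such a run, searched on the transcribed strand only, began exactly at the annotated first base in 13 of the 57 core genes with a RefSeq start region (22.8%), against 3.01% of 27025 genes of all kinds. Within 10 bases of the first base it was present in 34 of 57 (59.6%), against 34.4% of all genes. Among the 11159 tested genes with such a region the shares were 3.05% at the first base and 37.4% within 10 bases. The median log2 fold change was 0.06 over core genes with a run in that window and 0.09 over those without. In Rps27 and Rps6 a run spans the annotated first base. In Rps2, Rpl12 and Rps27l none does, and one begins within a few bases after it.

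Expression of the family was high and uneven when set per length of transcript. The core large subunit genes had a median of 411 CPM per kilobase (range 189 to 1057) and the core small subunit genes 445 CPM per kilobase (range 76.8 to 749). Rpl41, a very short peptide of the large subunit, stood at 1057 CPM per kilobase, beside Rplp1 of the ribosomal stalk at 1055 and Rplp0, the stalk's base, at 1002. In the small subunit Rps2, a protein at the mRNA entry channel, was highest at 749 CPM per kilobase. Rps20 was the lowest, at 76.8, for a transcript model of 3706 bases that is long for this family, so its value per length depends on that model.

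The ribosomal protein mRNAs made up 2.52, 2.58, 2.68 and 2.61% of counts in Ctrl 1 to 4 and 2.72, 2.63, 2.86 and 3.15% in CNP-Cdk7cKO 1 to 4. CNP-Cdk7cKO 4 was well above all others, and CNP-Cdk7cKO 2 lay inside the Ctrl range. The group means were 2.60 ± 0.0668% and 2.84 ± 0.227% (SD, n = 4), a difference of 0.243 percentage points. These shares are not scaled, and the factors that normalization by trimmed means of log ratios (TMM) applies to the library totals were 0.968 to 0.991 in Ctrl and 1.01 to 1.03 in CNP-Cdk7cKO.

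After TMM scaling, the difference between the groups was mostly that of a single library. The median core gene deviated from its Ctrl mean by -0.02, -0.02, 0.03 and 0.01 (log2) in Ctrl 1 to 4. In CNP-Cdk7cKO 1 to 4 the medians were -0.00020, -0.02, 0.07 and 0.23. CNP-Cdk7cKO 1 and 2 thus stood among the controls, CNP-Cdk7cKO 3 a little above them, and CNP-Cdk7cKO 4 apart. In CNP-Cdk7cKO 4 all 77 core genes were above their Ctrl mean, against 38, 26 and 65 in CNP-Cdk7cKO 1 to 3. In the controls themselves the number ran from 13 (Ctrl 2) to 70 (Ctrl 3), so the level of the family also differed between libraries of 1 genotype.

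**Figure D1:**
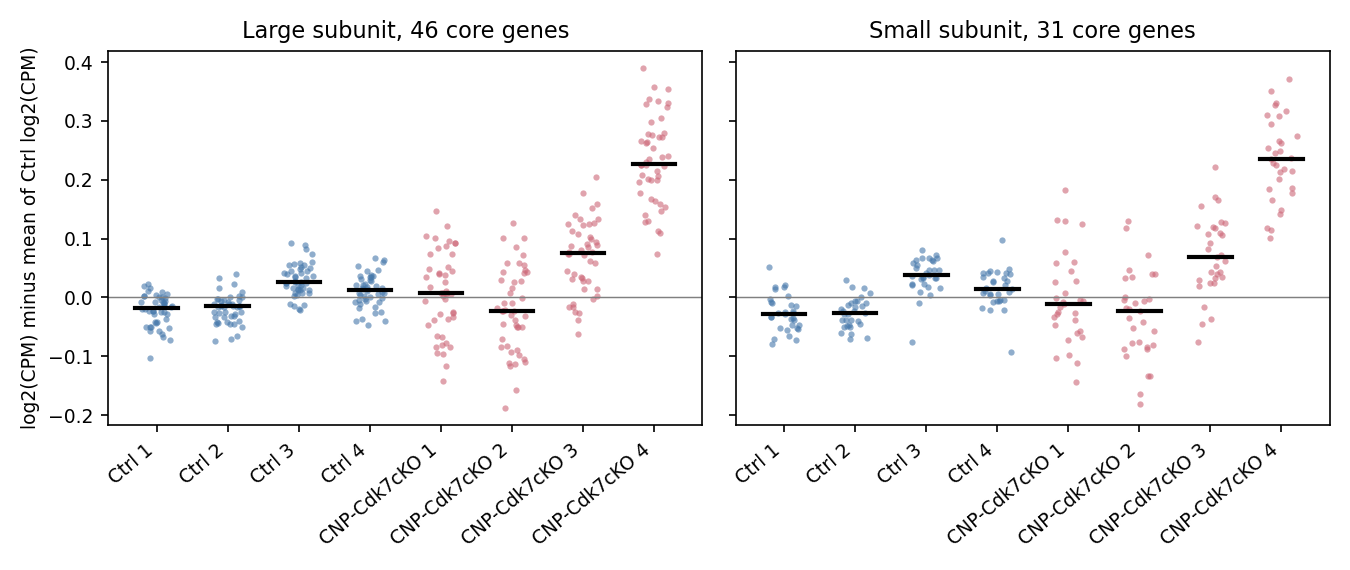
Each point is 1 core ribosomal protein gene in 1 library, as log2 CPM minus its mean log2 CPM in Ctrl, for 46 large subunit genes (left) and 31 small subunit genes (right). Black lines are medians; in CNP-Cdk7cKO 4 all points lie above 0, and in CNP-Cdk7cKO 1 and 2 the medians lie near 0.

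Other short mRNAs moved in that library too. In CNP-Cdk7cKO 4, 213 genes outside the family with transcripts under 1000 bases and at least 50 CPM had a median deviation of 0.13, and the 1699 genes outside the family with at least 100 CPM had one of -0.0043. Mitochondrial ribosomal protein genes deviated by 0.20 there. The part of transcript length or RNA quality in the shift of CNP-Cdk7cKO 4 was not tested.

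The balance of the subunits overlapped between genotypes. Summed counts of the core large over the core small subunit genes gave ratios of 1.642, 1.639, 1.623 and 1.625 in Ctrl 1 to 4. The ratios were 1.629, 1.628, 1.620 and 1.609 in CNP-Cdk7cKO 1 to 4. The groups overlapped, with means of 1.632 ± 0.0095 and 1.622 ± 0.0091 (SD, n = 4), and a difference of -0.0094 on the log2 scale. This ratio does not depend on library scaling, since both sums come from the same library. The lowest ratio was that of CNP-Cdk7cKO 4, whose large subunit genes deviated from Ctrl by a median of 0.23 and whose small subunit genes by 0.24. With each gene weighted equally the difference was 0.0037, of the opposite sign.

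**Figure D2:**
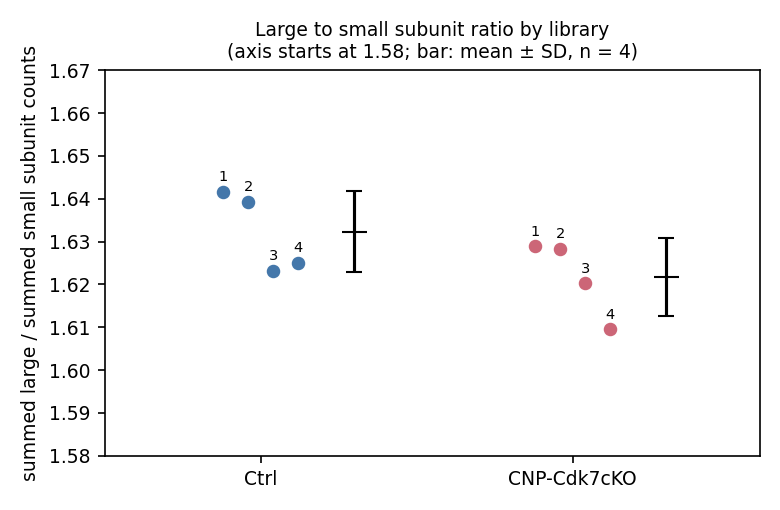
Summed counts of core large subunit genes divided by those of core small subunit genes, by library, with the replicate number beside each point and the group mean ± SD (n = 4). The 4 CNP-Cdk7cKO ratios, 1.609 to 1.629, overlap the 4 Ctrl ratios, 1.623 to 1.642, on a vertical axis that does not start at 0.

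Few members differed between genotypes as single genes. Of the 87 tested, 3 were called higher in CNP-Cdk7cKO (Rps27l, Rps2 and Rpl12), against a background of 5.07% of all tested genes, and 1 was called lower (Rpl3l), against 6.6%. That is 4.60% of the members in either direction, against 11.7% of all genes. Unadjusted p was under 0.05 for 18 members, against 26.1% of all genes. By subunit the calls were 1 higher and 1 lower of 52 large, and 2 higher and 0 lower of 35 small. With DESeq2 7 members were called higher and 0 lower, against 811 and 1191 of the 25445 genes with any counts.

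Most members of both subunits had a small positive difference. The fitted log2 fold change was above 0 for 71 of 87 members (81.6%), against 50.7% of all genes tested. Of the 77 core genes 63 were above 0, 46 without CNP-Cdk7cKO 4, 45 with the muscle markers as a covariate and 5 with a first surrogate variable (hidden variation estimated from the data by sva). Its median was 0.08 for the large and 0.08 for the small subunit genes, and 0.0031 over all genes. Core genes ran from -0.05 (Rpl10) to 0.23 (Rps2), with a median standard error of 0.06. Without CNP-Cdk7cKO 4 the medians were 0.02 (large) and 0.01 (small), with the muscle markers 0.01 and 0.02, with limma-voom 0.04 and 0.04, and with the surrogate variable in the model -0.10 and -0.14. The groups did not overlap for 14 members, all higher in CNP-Cdk7cKO (8 large, 6 small), which is 16.1% of those tested. Over all tested genes the groups did not overlap for 18.8%, with CNP-Cdk7cKO higher for 9.34% and lower for 9.51%. Besides the 3 called higher they included Rpl6l, Rpl7l1, Rpl8, Rpl10a, Rpl18, Rpl36, Rpl38, Rps15, Rps18 and Rpsa.

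**Figure D3:**
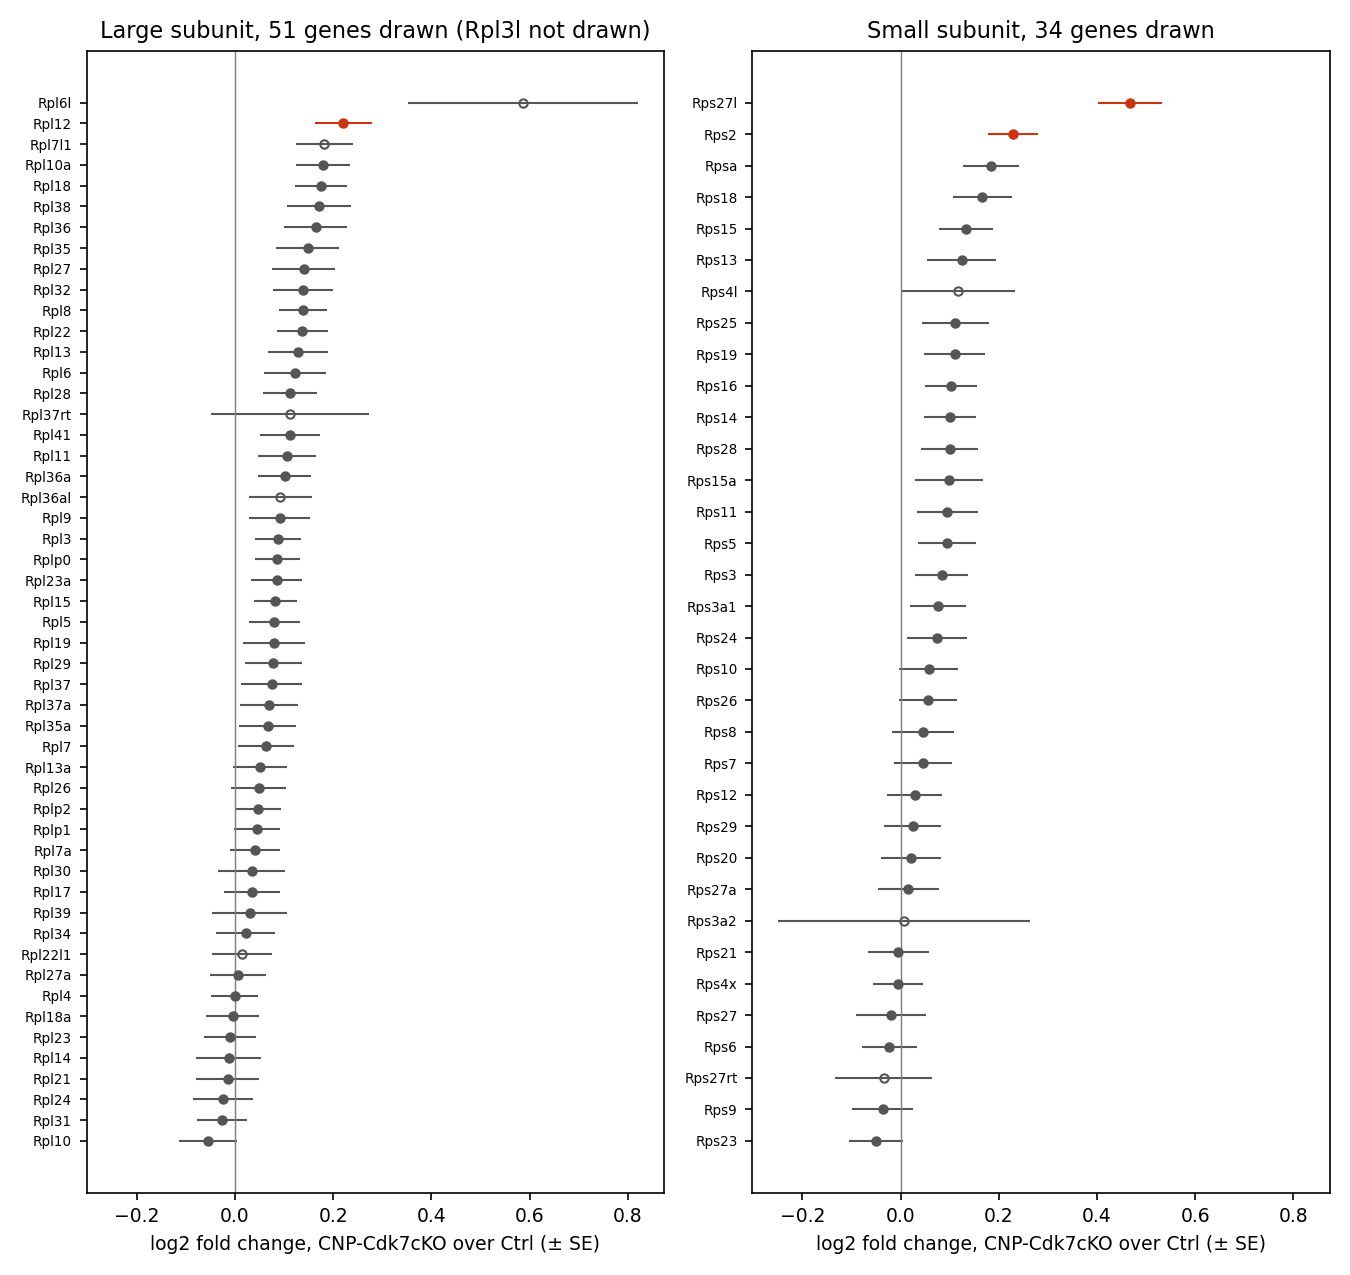
Fitted log2 fold change of CNP-Cdk7cKO over Ctrl with its standard error for 51 large and 34 small subunit genes, sorted by size; red points have an edgeR adjusted p under 0.05 and open points are members outside the core. Most points lie just right of 0, Rps27l, Rps2 and Rpl12 are red, and Rpl3l, at -2.46, is not drawn.

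Rps27l, a paralogue of the small subunit protein Rps27 that is known as a target gene of p53, had the strongest call. It measured 37.8, 41.9, 43.2 and 37.4 CPM (Ctrl 1 to 4), against 56.8, 53.8, 51.7 and 59.4 CPM (CNP-Cdk7cKO 1 to 4). Every knockout library was above every control. The means were 40.1 ± 2.92 and 55.4 ± 3.36 CPM (SD, n = 4), a 1.38-fold rise (log2 fold change 0.47 ± 0.06 SE, edgeR adjusted p = 0.0014). Without CNP-Cdk7cKO 4 the log2 fold change was 0.43 (adjusted p = 0.0042). Rps27l (ENSMUSG00000036781) has 4 exons and lies on chromosome 9 from 66946086 to 66949516 (GRCm38). With the skeletal muscle markers as a covariate its adjusted p was 0.143, with the first surrogate variable 0.171, and in female libraries alone 0.0634, with log2 fold changes of 0.43, 0.36 and 0.55.

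Rps2 was the most abundant small subunit mRNA. It measured 676, 692, 705 and 679.9 CPM (Ctrl 1 to 4), against 780.4, 752, 802 and 889.8 CPM (CNP-Cdk7cKO 1 to 4). The groups did not overlap, and CNP-Cdk7cKO 4 was the highest. The mean of 688 ± 13.1 CPM rose to 806 ± 59.3 CPM (SD over 4 libraries), a log2 fold change of 0.23 ± 0.05 (SE, edgeR adjusted p = 0.0152). Rps2 kept its call without any single library. Its call was lost with Xist (adjusted p = 0.174), the muscle markers (0.556) or the surrogate variable (0.802) as a covariate, and in female libraries alone (0.352).

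Rpl12, a large subunit protein at the foot of the stalk, measured 285, 285, 300.5 and 283 CPM in Ctrl 1 to 4. In CNP-Cdk7cKO 1 to 4 it measured 319.6, 315, 332 and 378 CPM, again with no overlap and with CNP-Cdk7cKO 4 highest. Its log2 fold change was 0.22 ± 0.06 (SE, edgeR adjusted p = 0.0320). The call was lost when Ctrl 1, 2, 3 or 4 or CNP-Cdk7cKO 3 was left out, with adjusted p-values of 0.0691, 0.0862, 0.0529, 0.0672 and 0.0613, and held without CNP-Cdk7cKO 4 (0.0296). It was lost under the same 3 covariates and in female libraries alone (adjusted p = 0.272 to 0.992).

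Several further members fell just short of the call. Rpl18 had a log2 fold change of 0.17 (edgeR adjusted p = 0.0589). Rpl10a, at 336 ± 9.21 and 381 ± 30.2 CPM (SD, n = 4), had one of 0.18 (0.0613). Rpsa, which also serves as the laminin receptor, measured 654, 665, 706 and 678 CPM (Ctrl 1 to 4), against 740.5, 710.4, 760.0 and 862 CPM (CNP-Cdk7cKO 1 to 4). Its groups did not overlap, by the narrow gap between Ctrl 3 and CNP-Cdk7cKO 2, and its log2 fold change was 0.18 ± 0.06 (SE, adjusted p = 0.0629).

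Proteins with roles of their own did not pass the test. Rplp0, Rplp1 and Rplp2, which form the stalk that recruits elongation factors, had log2 fold changes of 0.09, 0.04 and 0.05. Rplp0, a common reference gene for quantitative PCR, measured 1325, 1298, 1353 and 1304 CPM (Ctrl 1 to 4), against 1358, 1311, 1418 and 1516 CPM (CNP-Cdk7cKO 1 to 4). Only CNP-Cdk7cKO 2 lay within the Ctrl range, though CNP-Cdk7cKO 1 was close to it. Of the other reference genes, Rpl13a had a log2 fold change of 0.05 and Rps18 one of 0.17 with groups that did not overlap (edgeR adjusted p = 0.101).

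Rpl5 and Rpl11 bind 5S ribosomal RNA and, when not built into ribosomes, inhibit Mdm2, the ligase that marks p53 for degradation. Rpl5 measured 447, 445, 456 and 450.1 CPM (Ctrl 1 to 4), against 455, 442, 478 and 526 CPM (CNP-Cdk7cKO 1 to 4). Rpl11 measured 252, 259, 256 and 266 CPM (Ctrl 1 to 4), against 257, 266, 275 and 313 CPM (CNP-Cdk7cKO 1 to 4). Both overlapped between groups, with CNP-Cdk7cKO 4 the highest, and their log2 fold changes were 0.08 (edgeR adjusted p = 0.367) and 0.11 (0.288).

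Rps6 measured 347, 343, 350.2 and 355 CPM (Ctrl 1 to 4), against 323, 318, 354 and 379 CPM (CNP-Cdk7cKO 1 to 4). The knockout libraries thus lay on both sides of the controls, and the log2 fold change was -0.02 ± 0.06 (SE, edgeR adjusted p = 0.837). Rps19, an assembly factor of the small subunit head that is mutated in Diamond-Blackfan anaemia, measured 230.1, 227, 242 and 243 CPM (Ctrl 1 to 4), against 249, 229.9, 254 and 285 CPM (CNP-Cdk7cKO 1 to 4). It overlapped between groups (log2 fold change 0.11, adjusted p = 0.291).

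The 4 core genes on the X chromosome, Rpl10, Rpl36a, Rpl39 and Rps4x, gave no call, and their median log2 fold change was 0.01. Rps4x, whose human counterpart escapes X inactivation, measured 535 CPM in the female Ctrl 1 and 531, 568 and 549 CPM in the male Ctrl 2 to 4. In the knockout it measured 519, 509, 557 and 591 CPM, on both sides of the controls. Of the 7 core genes on chromosome 11, which carries Cnp, none was called. The nearest to Cnp was Rpl27, 0.851 Mb away, with a log2 fold change of 0.14 (edgeR adjusted p = 0.192), and Rps23, 9.78 Mb from Cdk7 on chromosome 13, had one of -0.05 (0.609).

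Set against the family rather than all genes, single members stood apart from the family's median in both directions. For each library the median log2 CPM of the core genes was subtracted from each gene's log2 CPM, a step chosen after the data were seen. That median is the level of the middle gene, not the median deviation given above. It placed core genes lower than the fit below that scales to the mean of the core genes. The log2 group difference was -0.16 against -0.13 in that fit for Rpl10, and 0.13 against 0.16 for Rps2. The counts that follow depend on this choice of reference. Of the 77 core genes, 8 then stood higher in all CNP-Cdk7cKO libraries than in any Ctrl (10.4%). They included Rps2, Rpl12, Rpsa, Rpl10a, Rpl18, Rps18 and Rpl36. Another 21 stood lower (27.3%), led by Rpl10, Rps23, Rps9, Rpl31, Rpl24, Rps6 and Rpl21. The lower genes included 14 of 46 large (30.4%) and 7 of 31 small subunit genes (22.6%). The subtraction shifts every other gene down as well, so the shares of all tested genes after it, 2.64% higher and 14.0% lower, are no like-for-like background. Before it they were 9.34% and 9.51%, and nothing is read from the members' counts against either.

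Values by library are given for 4 of these genes, chosen after their values were seen, as the relative level minus its Ctrl mean. Rpsa stood at 0.09, 0.09, 0.08 and 0.08 (log2) in CNP-Cdk7cKO 1 to 4 and between -0.01 and 0.02 in Ctrl. Rps2 stood at 0.13, 0.15, 0.13 and 0.10, and between -0.03 and 0.02 in Ctrl. Rpl10, a late-joining large subunit protein at the peptide-forming centre, stood at -0.19, -0.17, -0.11 and -0.16, and between -0.04 and 0.04 in Ctrl. Rps6 stood at -0.16, -0.11, -0.07 and -0.15, and between -0.04 and 0.03 in Ctrl.

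With library scaling set by the core genes, edgeR's quasi-likelihood test called Rps27l alone among the members (log2 fold change 0.40 ± 0.07 SE, adjusted p = 0.0108), against 1.53% of all genes called higher. Rps2 missed the call in that fit (adjusted p = 0.0601), as did Rpl12 (0.101), Rpsa (0.174) and Rpl10 (0.135). In that fit 5.23% of all genes were called lower and 0 members were.

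Several ribosomal proteins have a second gene with its own expression. Of the members' estimated counts 88.6% were not whole (beyond a tolerance of 1e-06), against 8.29% over the table. A value that is not whole shows only that some reads were shared between features, and how many was not measured. Values of paralogues and retrocopies may therefore depend on how Salmon divided the reads.

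Rps27, the main copy, was not called. It measured 167, 171, 184 and 181 CPM (Ctrl 1 to 4), against 159, 157, 184 and 194 CPM (CNP-Cdk7cKO 1 to 4), with full overlap (log2 fold change -0.02, edgeR adjusted p = 0.897). Rps27l made up 18.4, 19.7, 19.0 and 17.1% of the pair's counts in Ctrl and 26.3, 25.5, 21.9 and 23.4% in CNP-Cdk7cKO. The groups did not overlap, with means of 18.5 ± 1.10% and 24.3 ± 2.00% (SD, n = 4), and CNP-Cdk7cKO 4 was not the highest. Per length, Rps27l stood at 95.7 and Rps27 at 507 CPM per kilobase over all libraries. A retrocopy, Rps27rt, measured 16.8 and 16.4 CPM in the group means and was not called.

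Rpl22l1, which substitutes for Rpl22 and is held down by it in other tissues, measured 38.4, 41.3, 41.4 and 43.3 CPM (Ctrl 1 to 4), against 39.9, 38.5, 44.5 and 43.2 CPM (CNP-Cdk7cKO 1 to 4). The groups overlapped fully (log2 fold change 0.01, edgeR adjusted p = 0.914). Rpl22 had a log2 fold change of 0.14 (0.115), and Rpl22l1 took 19.7 ± 0.722% of the pair (Ctrl) against 18.4 ± 0.838% (CNP-Cdk7cKO; SD, n = 4 each). Rpl36al, a paralogue of Rpl36a, took 32.2 ± 1.32% and 32.0 ± 0.960% of its pair.

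Rpl7l1, which resembles Rpl7, measured 56.4, 58.9, 62.2 and 55.6 CPM (Ctrl 1 to 4), against 64.8, 64.3, 62.9 and 72.6 CPM (CNP-Cdk7cKO 1 to 4). The groups were separate by a narrow gap (log2 fold change 0.18 ± 0.06 SE, edgeR adjusted p = 0.0690). Rps4l had a log2 fold change of 0.12 with a standard error of 0.12, and Rps3a2, at a mean of 1.82 CPM, one of 0.0069. Rpl6l, at 0.833 and 1.26 CPM in the group means, had one of 0.59 ± 0.23 (SE, adjusted p = 0.139).

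**Figure D4:**
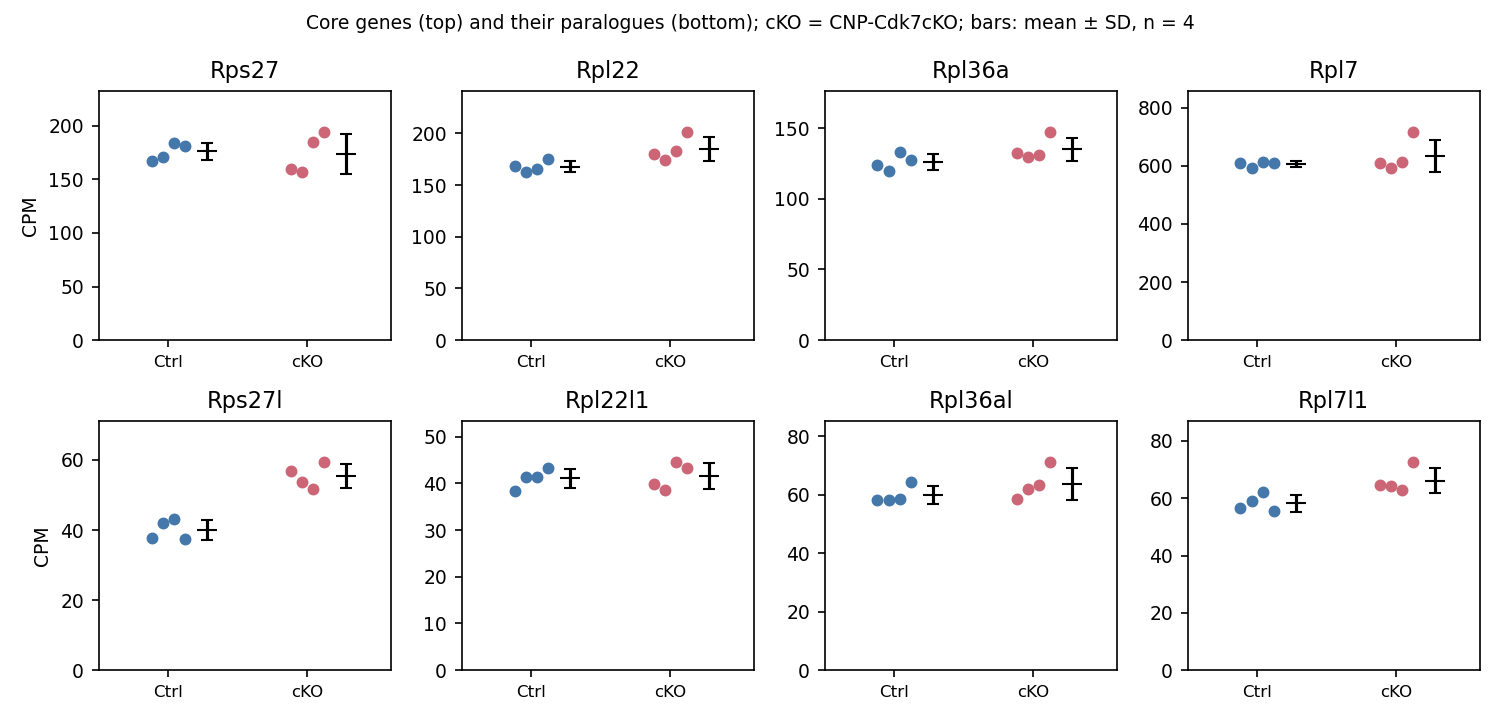
CPM by library for 4 core genes (top) and their paralogues (bottom), each with the group mean ± SD (n = 4) and an axis from 0; cKO stands for CNP-Cdk7cKO. The Rps27l values are separate between groups (37.4 to 43.2 against 51.7 to 59.4 CPM), those of Rps27 and Rpl22l1 overlap, and those of Rpl7l1 are separated by a narrow gap.

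Rpl3l is the muscle paralogue of the large subunit protein Rpl3, known from skeletal muscle and heart. It measured 1.41, 5.22, 2.21 and 10.7 CPM (Ctrl 1 to 4), against 0.724, 2.17, 0.150 and 0.491 CPM (CNP-Cdk7cKO 1 to 4). CNP-Cdk7cKO 2 was above Ctrl 1, so the groups overlapped. The mean of 4.88 ± 4.20 CPM fell to 0.885 ± 0.892 CPM (SD over 4 libraries), a log2 fold change of -2.46 ± 0.72 (SE, edgeR adjusted p = 0.0485). Rpl3 itself, at 626 ± 11.7 and 665 ± 41.5 CPM, had a log2 fold change of 0.09 (adjusted p = 0.266).

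Skeletal muscle markers moved with Rpl3l from library to library. They took 0.0587, 0.197, 0.143 and 0.586% of counts in Ctrl 1 to 4 and 0.0313, 0.0700, 0.0110 and 0.0214% in CNP-Cdk7cKO 1 to 4. The 8 libraries stood in the same order for these markers as for Rpl3l. Of the 21 muscle markers 20 were called lower and 0 were at 0 throughout. With those markers as a covariate the log2 fold change of Rpl3l was 0.0094, and with the first surrogate variable 0.77. The call of Rpl3l was lost on leaving out Ctrl 2, 3 or 4 or CNP-Cdk7cKO 1, 3 or 4 (adjusted p = 0.0516 to 0.125), and with DESeq2 (0.0571).

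**Figure D5:**
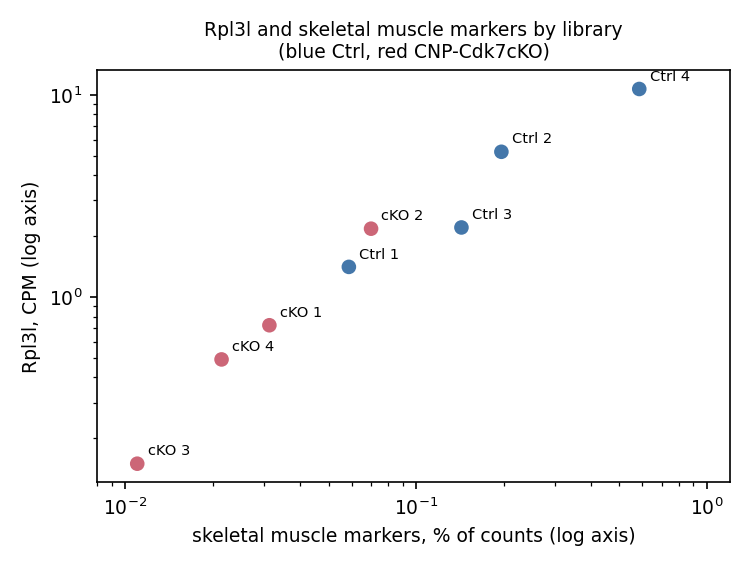
Rpl3l in CPM against the summed share of 21 skeletal muscle markers in percent of counts, 1 point for each library, both axes logarithmic. Rpl3l runs from 0.150 CPM in CNP-Cdk7cKO 3, the library with the least muscle RNA, to 10.7 CPM in Ctrl 4, the one with the most.

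Small subunit proteins named outside the rule were not called. Fau, which encodes one fused to a ubiquitin-like domain, had a log2 fold change of -0.04, and Rack1, a scaffold on the small subunit, one of 0.12 (edgeR adjusted p = 0.784 and 0.173). Of 300 rows with a -ps symbol 38 were tested and 0 called, with a median log2 fold change of 0.09. These rows held counts equal to 0.775 to 0.858% of those of the members.

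Genes that assemble ribosomes were described beside the proteins that form them, from lists chosen for their role with earlier results of these data known. The counts called in these lists are to be read against 5.07% of all tested genes called higher and 6.6% lower. Of 51 factors of large subunit assembly 10 rose and 0 fell (19.6%, median log2 fold change 0.15), and of 53 factors of small subunit assembly 3 rose and 0 fell (5.66%, median 0.12), where 11.7% of all genes were called. Leaving out 1 library gave 4 to 10 of the first (4 without Ctrl 1, 5 without Ctrl 2, 3 or 4) and 1 to 4 of the second (1 without Ctrl 1 or 3 or CNP-Cdk7cKO 1, 2 or 4, and 2 without Ctrl 2). Both counts were 0 with Xist, the muscle markers or the surrogate variable as a covariate. In those fits, in that order, only 76, 83 and 98 of all 15056 genes were called higher, so nothing is read from the 0 counts. Among the first were Nop58, a core protein of box C/D snoRNPs (35.0 ± 0.312 to 45.9 ± 3.05 CPM; log2 fold change 0.39 ± 0.06 SE, edgeR adjusted p = 0.0017), Bop1, Mak16 and Ppan (0.25, 0.32 and 0.24; 0.0137, 0.0179 and 0.0201). Among the second were Bysl, Wdr75 and Noc4l (0.31, 0.27 and 0.28; 0.0105, 0.0252 and 0.0295).

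Of 21 chaperones and importers of ribosomal proteins 3 rose (14.3%, median 0.07), and 1 to 3 on leaving out 1 library (1 without Ctrl 1, 2 or 3 or CNP-Cdk7cKO 1). These were Dnajc2, a ribosome-bound co-chaperone (log2 fold change 0.37, edgeR adjusted p = 0.0016), Grwd1 (0.27, 0.0290) and Ipo4 (0.20, 0.0440). Of 78 mitochondrial ribosomal protein genes 6 rose and 0 fell (7.69%, median 0.10), among them Mrps18b (0.37, 0.0116) and Mrpl57 (0.29, 0.0170). Leaving out 1 library gave 2 to 5, with 2 without any one Ctrl library, 3 without CNP-Cdk7cKO 2 or 4 and 4 without CNP-Cdk7cKO 3.

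Translation factors were called in both directions. Among 12 elongation and termination factors 3 rose, Eif5a, Etf1 and Gspt1 (log2 fold changes 0.22, 0.15 and 0.19; edgeR adjusted p = 0.0130, 0.0336 and 0.0438), and 1 fell, Eif5a2 (-0.21, 0.0450), which is 33.3% of a short list. Leaving out 1 library gave 1 to 3 higher, with 3 only without CNP-Cdk7cKO 4, and 0 to 1 lower, with 1 only without Ctrl 3 or CNP-Cdk7cKO 4. Among 40 initiation factors 4 rose and 2 fell, against 11.7% of all genes called. Leaving out 1 library gave 0 to 5 higher (0 without Ctrl 2 or 3, 1 without CNP-Cdk7cKO 1 or 3) and 1 to 2 lower (2 only without Ctrl 4 or CNP-Cdk7cKO 4). Eif1, which guards start codon choice, fell from 818 ± 10.4 to 633 ± 51.2 CPM (-0.37 ± 0.05 SE, 0.0018). The X-linked Eif2s3x, one of the 4, measured 127 CPM in the female Ctrl 1 and 79.0 to 84.3 CPM in the male controls, against 129 to 136 CPM in the knockout.

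Of 23 other mRNAs known to carry a TOP motif, Ybx1 rose (0.19, edgeR adjusted p = 0.0131) and Hnrnpa1 and Eif4b fell (-0.26 and -0.15; 0.0270 and 0.0329), with a median of 0.04 and 13.0% called. Leaving out 1 library gave 0 to 1 higher (0 without Ctrl 2) and 0 to 3 lower (0 without Ctrl 2 or 3 or CNP-Cdk7cKO 1 or 2, 1 without Ctrl 1 or 4 or CNP-Cdk7cKO 3). Of 20 regulators of TOP mRNAs, mTOR signalling and S6 kinases none was called at an edgeR adjusted p under 0.05 (median -0.03). Of 17 genes of ribosome quality control none was called either (median 0.02). Of 15 Myc family and RNA polymerase I factors 2 rose (13.3%), Mycn (0.31, 0.0057) and Mycl (0.49, 0.0120), and the count was 2 whichever library was left out.

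Other genes tied to p53 were called beside Rps27l. The list of 9 genes of the Mdm2 and p53 axis itself holds Rps27l and Rpl22l1. It was chosen with earlier results of these data known, so its share called is not independent of them. Of the 9 genes 5 rose and 1 fell (66.7%, against 11.7% of all genes), and the counts were 5 and 1 whichever library was left out. With Xist, the muscle markers or the surrogate variable as a covariate 2 were called higher. Over all 15056 genes those fits called 76, 83 and 98 higher. Sesn2, which restrains mTORC1 under stress, went up from 8.97 ± 0.509 to 31.2 ± 3.37 CPM (log2 fold change 1.80 ± 0.09 SE, edgeR adjusted p = 2.18e-06). Mdm2 rose from 45.3 ± 2.31 to 62.5 ± 2.80 CPM (0.46 ± 0.05, 0.00045) and Trp53, which encodes p53, from 77.5 ± 1.03 to 102 ± 7.02 CPM (0.40 ± 0.05, 0.0010). In each of these 3 genes, as in Rps27l, all CNP-Cdk7cKO libraries were above all Ctrl libraries.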

How the data were processed

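RNA from sciatic nerve (Qiagen columns with DNase) was made into stranded polyA libraries, per the labels' protocols. The authors deposited gene-level estimated counts, for which STAR, Salmon and GRCm38 are named, per the submitters' processing notes; their versions and settings: not given in the sources used here. Rounding to whole counts moved library totals by at most 0.000113%. Of 55487 Ensembl identifiers 55141 matched a symbol.

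Genes passing filterByExpr (minimum count 10, minimum total 15; 15056 genes) were scaled by TMM and tested in edgeR 4.0.16 (R 4.3.3) by its quasi-likelihood F test, Benjamini-Hochberg adjusted over all of them. A gene was called, or said to rise or fall, at an adjusted p under 0.05. CPM values use TMM-scaled totals. Length is that of the shortest principal transcript (GENCODE). Alternatives used DESeq2 1.42.0, limma 3.58.1 and sva 3.50.0. The steps were tested on simulated counts. Replicate numbers were not taken as pairs.

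The members and lists were chosen with earlier results of these data known. Every member could be named. Values by library were given for called members, paralogues, the ends of the abundance range and preset genes, and from each context list up to 4 called genes with the smallest p could be named. Rpl10a, Rpl18, Rpl41, Rps20 and the genes of the relative comparison were named after their values were seen. Single values of 1 member and of 1 further gene are not reported here.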

Additional observations from a re-analysis of the deposited data

Results flagged for a closer look

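In 8 of 82 groups of 4 libraries tested, 1 library lay far from the other 3. Chance alone gives about 1 in 20 for independent groups. These groups come from the same libraries and from genes that move together, so nothing is read from the count. CNP-Cdk7cKO 4 was the highest of its group for Rpl7 (716 CPM, the others 594 to 612), Rpl36a (147 CPM, the others 130 to 133), Rpl38 (138 CPM, the others 114 to 118) and Rps21 (119.6 CPM, the others 100.3 to 103). This is the library in which all core genes were above their Ctrl mean. In Ctrl, Rpl12 was highest in Ctrl 3 (300.5 CPM, the others 283 to 285), Rpl3 was lowest in Ctrl 4 (608 CPM, the others 629.7 to 633), and Rpl36al was highest in Ctrl 4 (64.3 CPM, the others 58.0 to 58.4). The share of Rpl36al in its pair with Rpl36a was lowest in CNP-Cdk7cKO 1 (30.6%, the others 32.3 to 32.6%).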

How the results depend on the processing

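Counts of called members moved with the test and with covariates, and so did the counts over all genes. In the main fit 763 of 15056 genes were called higher and 994 lower. The counts were 811 and 1191 with DESeq2, 898 and 1003 with limma-voom, and 231 and 787 with scaling to the core genes. With a covariate they fell to 76 and 167 (Xist), 83 and 120 (muscle markers) and 98 and 113 (sva's first variable). Members called higher numbered 3, and 7 with DESeq2, 5 with limma-voom, 1 with Xist as a covariate, 1 with scaling to the core genes (chosen after seeing the data), and 0 with the muscle markers or sva's first variable in the model or in female libraries alone; leaving out 1 library gave 2 to 5. By subunit, DESeq2 called 3 large and 4 small genes higher and limma-voom 2 large genes; with Xist or core scaling 0 large and 1 small were called, and under the other 3 settings 0 and 0. Leaving out 1 library gave 0 to 2 large and 2 to 3 small. The 1 lower call, Rpl3l, became 0 under these 7 settings, and 0 to 1 without 1 library; its log2 fold change turned to 0.0094 with the muscle markers and 0.77 with the surrogate variable. Median log2 fold changes were -0.10 (large) and -0.14 (small) with the surrogate variable, and 0.02 to 0.10 and 0.01 to 0.11 without 1 library, lowest without CNP-Cdk7cKO 4. Over all tested members the median of 0.080 became 0.105 with Xist as a covariate and 0.098 in female libraries alone. The log2 difference of the subunit ratio was -0.0094, 0.0037 with genes weighted equally, 0.00085 without the most abundant gene of each subunit, and -0.012 to -0.0057 without 1 library. The ratio over members with whole counts throughout was not run, as 0 core genes qualified. The share of counts differed by 0.139 to 0.313 percentage points without 1 library. Genes of the context lists called higher numbered 36, and 2, 2, 3, 1 and 7 with Xist, the muscle markers, the surrogate variable, female libraries alone and core scaling, and 17 to 31 without 1 library; those called lower numbered 5, and 0, 1, 2 and 0 under the first 4 of these, 3 with no count filter, and 2 to 5 without 1 library. The cause of these changes was not tested, though adding a covariate or leaving out libraries also leaves fewer degrees of freedom.

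Same-numbered Ctrl and CNP-Cdk7cKO libraries correlated at 0.0089 to 0.127 in their deviations, and differently numbered ones at -0.156 to 0.168. These values cannot show whether same-numbered libraries shared a litter or a preparation. With the replicate block the calls were again 3 higher and 1 lower, with medians of 0.08 (large) and 0.07 (small).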
